A study of Mus musculus with 2 samples.

Results

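The outermost stretches of the 19 mouse autosomes were examined in a map of CTCF binding from thymocytes. Regions were formed from touching 25-bp bins of the deposited peak track. A region belonged to the centromere side when its centre lay in the first 1.5 Mb after the start of the first listed region of a chromosome. It belonged to the telomere side when its centre lay in the last 1.5 Mb before the end of the last listed region. These 38 windows held 1373 of the 53551 regions in the map, 661 on the centromere side and 712 on the telomere side. They made up 2.63% of the autosomal regions on 2.37% of the autosomal span.

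The chromatin came from CD4-CD8- (DN, double-negative) thymocytes of Rag1-/- mice of the C57BL/6 strain, aged 4 to 8 weeks, and was precipitated with an antibody against CTCF. Both the CTCF library and the input library, 1 of each, came from Rag1-deficient cells, which cannot cut their antigen receptor genes and stop at this stage of T cell development. Only the CTCF library is described here, the track gives positions without height or depth, and there was no replicate. Whether the cells carried the markers of DN thymocytes cannot be read from a list of positions, and the number and sex of the animals are not stated in the labels.

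CTCF is a zinc-finger protein that binds insulator elements and halts the cohesin complex, so that its sites often form the feet of chromatin loops. Mouse autosomes carry the centromere at the end with the low coordinates, beside blocks of satellite repeats that the assembly leaves out. The other end runs into the telomere of the long arm. Each listed span therefore starts on the centromere side of its chromosome and ends on the telomere side. At neither end does the first or last region mark the physical end of the chromosome.

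The listed spans began at nearly the same coordinate on most autosomes. On 18 of 19 chromosomes the first region started below 3.6 Mb in the mm9 build, the lowest at 3000176 on chromosome 9. Chromosome 14 was the exception, with a first region from 6239445 to 6239794. Whether the stretch before it could be mapped was not tested.

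The 2 sides held similar numbers of regions in all, although single chromosomes differed widely. The centromere side held 23.2 regions per Mb (exact Poisson 95% interval 21.5 to 25.03) and the telomere side 24.98 per Mb (23.2 to 26.9). The ratio of telomere to centromere side was 1.08 (95% interval from the exact binomial 0.97 to 1.20), so a difference between the sides was not detectable beyond counting error with these windows. This depended on the setting: the interval lay above 1 with windows of 3 Mb (1.35, 1.25 to 1.45), with limits at the fifth region from each end (1.15, 1.04 to 1.27) and without regions of 100 bp or less (1.14, 1.01 to 1.28). It also lay above 1 without chromosome 8, 12 or 19, at ratios of 1.12, 1.15 and 1.24. The autosomes outside the outer 3 Mb of each end held 21.5 per Mb (21.3 to 21.6). Against them the ratio was 1.16 (1.08 to 1.25) for the telomere side and 1.08 (1.00 to 1.17) for the centromere side. These intervals, like all others given here, cover counting error only, and clustered sites make the true error larger.

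**Figure D1:**
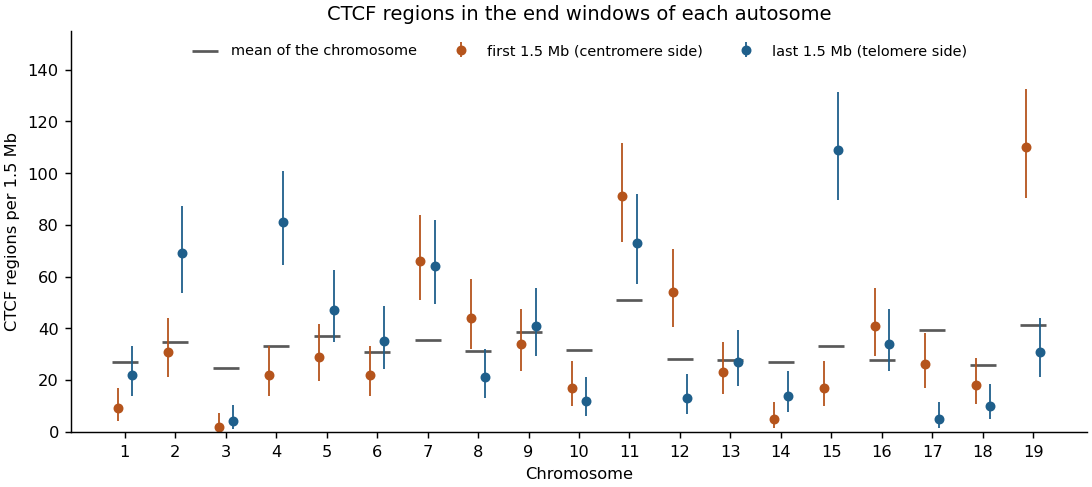
Number of CTCF regions in the first 1.5 Mb (orange) and the last 1.5 Mb (blue) of the listed span of each autosome, with exact Poisson 95% intervals; grey dashes give the mean of the chromosome per 1.5 Mb. Chromosomes 19 and 15 reach 110 and 109 regions at opposite ends, while chromosome 3 has 2 and 4.

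At 1.5 Mb the chromosomes were split nearly evenly. The telomere side held more regions on 10 of 19 chromosomes (52.6%) and the centromere side on 9, while with windows of 3 Mb the telomere side held more on 14. In 773 pairs of 1.5-Mb windows at equal distances from both ends, taken farther inside the same chromosomes, the window on the telomere side was higher in 59.4%. The counting interval of the ratio lay above 1 on chromosomes 1, 2, 4 and 15 and below 1 on chromosomes 8, 12, 17 and 19. That is 4 of 19 in each direction (21.1%), against 43.5% and 24.3% of the inner pairs. Intervals that exclude 1 were thus common between any paired windows of this map, and the 8 at the ends are descriptions of those chromosomes.

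The highest count of the centromere side was on chromosome 19, with 110 regions (exact Poisson 95% interval 90.4 to 132.6). It was the densest of the 38 windows of 1.5 Mb into which that chromosome was tiled from its first region. The next 1.5 Mb held 102, while the telomere side of chromosome 19 held 31, next to 38. The first region there ran from 3204361 to 3204985 and the last from 61341111 to 61342035. In the order of the RefSeq table, which follows GRCm38.p6 and not mm9, the first named protein-coding genes of chromosome 19 are Ighmbp2, a helicase gene, Mrpl21, which encodes a protein of the mitochondrial ribosome, and Cpt1a, which encodes the carnitine transferase of fatty acid import. Regions were not assigned to these genes or to any gene named further on, because their positions in mm9 were not used here.

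Chromosome 11 followed with 91 regions on the centromere side, next to 81. It was also high at its other end, where the telomere side held 73, next to 110. Its first region ran from 3023221 to 3023620 and its last from 121827321 to 121827595. Chromosome 7 had 66 on the centromere side, next to 42, and 64 on the telomere side, next to 68, the most even pair among the high counts. Its outermost regions lay at 3184355 to 3184954 and 152479630 to 152480204. Chromosomes 19, 11 and 7 together held 40.4% of all regions of the centromere side.

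On the telomere side the highest count was that of chromosome 15, with 109 regions (89.5 to 131.5), next to 83. It ranked 1 among 66 windows of that chromosome tiled from its last region, but 64 of them held fewer, so another window tied with it. Tiled from the first region, the highest window of chromosome 15 held 111. The same chromosome had 17 regions on the centromere side, next to 23, which gave the largest ratio of telomere to centromere side, 6.41 (95% interval 3.83 to 11.4). Its first region ran from 3124780 to 3125329 and its last from 103382355 to 103382979. The last named genes in the RefSeq order are Mucl2, Glycam1, which encodes a mucin-like ligand of L-selectin, and Ppp1r1a, which encodes an inhibitor of protein phosphatase 1.

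Chromosome 4 came next with 81 regions on the telomere side, next to 34. Its centromere side held 22, next to 8. Both of its ends therefore exceeded their neighbour, at ratios of 2.38 (1.58 to 3.67) and 2.75 (1.18 to 7.14). Its first region ran from 3347186 to 3347585 and its last from 155609636 to 155609785. With chromosome 11 in the third place, the 3 highest chromosomes held 36.9% of the regions of the telomere side.

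Chromosome 3 was the sparsest at both ends. Its centromere side held 2 regions (exact Poisson 95% interval 0.24 to 7.22), next to 3, and its telomere side 4 (1.09 to 10.2), next to 19. The mean of the chromosome was 24.5 per 1.5 Mb. The 2 regions of the centromere side were the first one, from 3502669 to 3503043, and another after a gap of 248 kb. The fifth region of the chromosome lay 2748 kb from the start. At the other end the last region, from 159387419 to 159387968, was followed inward by a gap of 176 kb. The outermost named genes in the RefSeq order are Hnf4g, which encodes a nuclear receptor, Zfhx4 and Pex2 on the centromere side, and Wls, which encodes a carrier of Wnt ligands, Rpe65, which encodes the retinoid isomerase of the eye, and Depdc1a on the telomere side.

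Low counts on the centromere side were also found on chromosomes 14 and 1. Chromosome 14 had 5 regions, next to 34, and 14 on the telomere side, next to 51, so both of its ends lay below their neighbours. The last region of chromosome 14 ran from 124810020 to 124810669. Chromosome 1 had 9, next to 13, and 22 on the telomere side, next to 43. Its first region, from 3181321 to 3181395, stood alone before a gap of 844 kb, and its last ran from 197112371 to 197112395.

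Low counts on the telomere side were found on chromosomes 17 and 18 as well. Chromosome 17 held 5 regions there, next to 7, against 26 on its centromere side, next to 51. Its mean was 39.5 per 1.5 Mb, and its last region ran from 95148677 to 95148976. Chromosome 17 thus had few regions over at least its last 3 Mb. Chromosome 18 held 10, next to 5, against 18 on the centromere side, next to 36, and its last region ran from 90748932 to 90748956. The first regions of chromosomes 17 and 18 ran from 3082852 to 3083301 and from 3039457 to 3039781.

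The remaining chromosomes lay between these. Chromosomes 8 and 12 were denser at the centromere side, with 44 and 54 regions against 21 and 13 at the telomere side. Chromosome 2 was the reverse, with 31 against 69. Chromosomes 5, 6, 9 and 13 had 29, 22, 34 and 23 regions on the centromere side and 47, 35, 41 and 27 on the telomere side, with intervals of the ratio that included 1 on each of them. The same held for chromosomes 10 and 16, with 17 and 41 on the centromere side and 12 and 34 on the telomere side.

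Set against the mean of its own chromosome, the centromere side was higher on 6 of 19 chromosomes and the telomere side on 9. Among all other 1.5-Mb windows, 42.9% lay above the mean when windows were tiled from the centromere side and 41.7% when they were tiled from the telomere side. Both ends were above the mean on chromosomes 7, 11 and 16, and both were below it on 7 chromosomes (1, 3, 10, 13, 14, 17 and 18). The telomere side alone was above on chromosomes 2, 4, 5, 6, 9 and 15, and the centromere side alone on chromosomes 8, 12 and 19. Across the 19 chromosomes, Pearson's r between the count and the mean of the chromosome was 0.69 on the centromere side (Spearman's rho 0.64) and 0.45 on the telomere side (rho 0.52). Between the counts of the 2 ends r was 0.22 (rho 0.33). These are descriptions of 1 library, and each end window is a part of the mean it is set against.

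The telomere side was sparser than the 1.5 Mb next to it. The window farther in had a density of 36.4 per Mb from 1036 regions (exact Poisson 95% interval 34.2 to 38.6), against 24.98 in the last 1.5 Mb, a ratio of 0.69 (0.62 to 0.76). The end window was the lower on 14 of 19 chromosomes (73.7%), whereas among 1558 other adjacent pairs the window nearer the telomere was lower in 49.2%. The interval of the ratio lay below 1 on 10 chromosomes (52.6%) against 23.4% of those pairs. The 10 were chromosomes 1, 3, 5, 8, 9, 10, 11, 12, 14 and 16. It lay above 1 on chromosomes 2 and 4 (10.5%) against 23.6%.

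The widest step was on chromosome 10. Its last 1.5 Mb held 12 regions and the 1.5 Mb before them 124, the highest count of any window next to an end and a ratio of 0.097 (0.049 to 0.18). Chromosome 5 fell from 116 to 47 toward the telomere, and chromosome 8 from 60 to 21. Chromosome 9 had 80 and 41, chromosome 16 had 61 and 34, and chromosome 12 had 28 and 13. On chromosomes 6 and 13 the 2 windows were close, with 41 and 35, and with 25 and 27. Only chromosomes 2, 4, 13, 15 and 18 had more regions in the last 1.5 Mb than in the window before it, and chromosome 2 had 69 against 43.

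On the centromere side the end and its neighbour were alike in sum. The neighbour held 635 regions, or 22.3 per Mb (20.6 to 24.1), and the ratio of end to neighbour was 1.04 (0.93 to 1.16). The end was the higher on 9 of 19 chromosomes (47.4%), against 48.3% of 1558 other adjacent pairs. The interval of the ratio lay above 1 on chromosomes 4, 7, 8, 9 and 12 (26.3%, against 23.2% of pairs) and below 1 on chromosomes 10, 14, 17 and 18 (21.1%, against 24.5%). These shares were near those of the other pairs. Chromosome 8 showed a steep step, with 44 regions in the first 1.5 Mb and 5 in the next. Chromosome 9 showed another, with 34 and 3, and 20 of the 34 belonged to a run of narrow regions at its very start that is described further on.

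The other windows next to the centromere side held 45 regions on chromosome 2, 18 on chromosome 5, 26 on chromosome 6, 44 on chromosome 10, 32 on chromosome 12, 12 on chromosome 13 and 57 on chromosome 16. The 2 neighbour windows differed from each other more than the end windows did. Telomere to centromere, their ratio was 1.63 (1.48 to 1.80). The telomere side was higher on 14 of 19 chromosomes (73.7%), against 59.4% of all 773 pairs beyond the end windows, these included. The intervals of the 2 ratios, 1.63 between the neighbours and 1.08 between the ends, did not overlap.

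**Figure D2:**
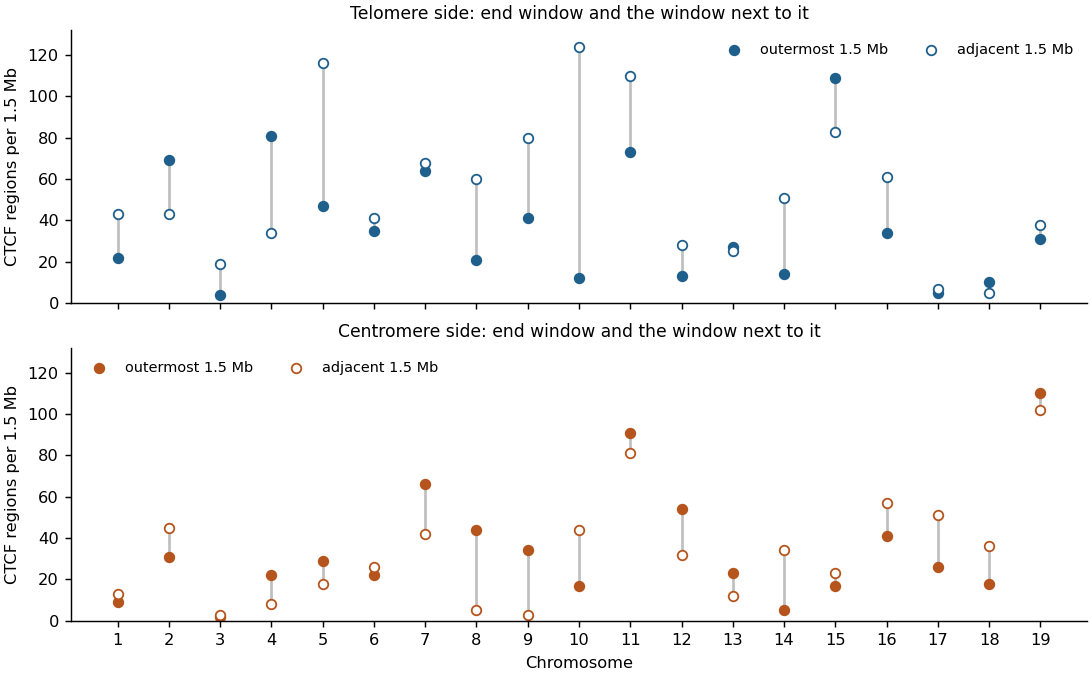
Number of CTCF regions in the outermost 1.5 Mb (filled) and in the adjacent 1.5 Mb (open) of each autosome, for the telomere side above and the centromere side below. On the telomere side the open point is the higher on 14 of 19 chromosomes, and chromosome 10 has 12 against 124.

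Followed inward, the sides moved apart. In steps of 1.5 Mb the telomere side held 24.98, 36.4, 36.5, 32.6, 31.2 and 32.2 regions per Mb over its outer 9 Mb. The centromere side held 23.2, 22.3, 14.2, 15.1, 12.98 and 15.5 per Mb. The last 1.5 Mb was thus below the 5 windows inside it, and the first 3 Mb was above the 4 windows that followed. Farther in, the telomere side came down to 22.4, 21.0 and 24.7 per Mb between 9 and 13.5 Mb, slightly below the last 1.5 Mb, and stood at 35.7 at 13.5 to 15 Mb. The window next to the telomere side, at 1.69 times (1.59 to 1.80) the density outside the outer 3 Mb, was itself a dense one. The ratio of telomere to centromere side rose from 1.08 in the outermost windows to 2.56 (2.28 to 2.88) at 3 to 4.5 Mb. There the telomere side was higher on 15 of 19 chromosomes, against 59.4% of all 773 pairs beyond the end windows. At 9 to 10.5 Mb the ratio was 1.42 (1.26 to 1.61). The outermost pair had the lowest ratio of the 10 pairs that cover 15 Mb.

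Finer steps of 0.5 Mb showed where the change fell. On the telomere side the density was 26.0 regions per Mb in the last 0.5 Mb (22.9 to 29.5), 21.5 in the next and 27.5 in the third. Without the outermost region of each chromosome, the last 0.5 Mb held 24.0 per Mb (21.0 to 27.3). Just outside the limit of 1.5 Mb the density was 33.5 (29.9 to 37.4), and it reached 38.4 at 2 to 2.5 Mb. The last 1.5 Mb thus stayed below the following 1.5 Mb in each of its 3 steps. In the step from 0.5 to 1 Mb, 4 of 19 chromosomes had no region on the telomere side.

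On the centromere side the first 0.5 Mb held 30.9 regions per Mb (27.5 to 34.7), and the next steps 18.6 and 20. The first step contains the outermost region of each chromosome by the way the windows were set. Without these it held 28.9 per Mb, and without the first 100 kb of chromosome 9 as well it held 26.9 (23.7 to 30.5), still above the 18.6 (16.0 to 21.6) of the second step. Leaving out the outermost region keeps its close neighbours, and 64.3% of regions outside the outer 3 Mb had another within 10 kb. Later steps do not start at a region. Whether the first step is denser apart from this was not tested. Just inside the limit, from 1 to 1.5 Mb, there were 190 regions, and just outside it, from 1.5 to 2 Mb, there were 240.

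**Figure D3:**
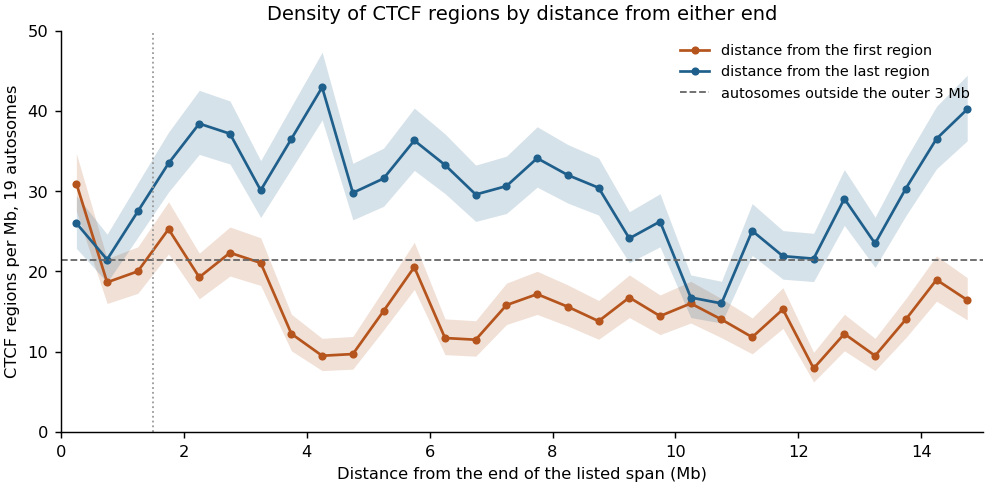
CTCF regions per Mb over the 19 autosomes, in steps of 0.5 Mb, against the distance from the first (orange) or last (blue) listed region; bands are exact Poisson 95% intervals, the dashed line is the density outside the outer 3 Mb, and the dotted line marks 1.5 Mb. The blue curve lies above the orange one beyond the first 0.5 Mb, with bands that overlap up to 1 Mb and again from 10 to 11 Mb.

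Within the windows the regions were bunched. The densest 100 kb of the telomere side lay on chromosome 15, from 103080505 to 103178154, and held 24 regions, 12 of them 500 bp or wider. On chromosomes 11, 4 and 13 the densest 100 kb held 14, 13 and 13 regions. On chromosome 13 these 13 were 13 of the 27 in its window, from 120130521 to 120218795. On the centromere side chromosome 19 had 17 within 100 kb (4037986 to 4136660, 7 of them 500 bp or wider) and chromosome 11 had 14 (3901421 to 3998620, 6 of them).

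The highest count within 100 kb on the centromere side was at the start of chromosome 9 and differed from these in width. There 20 regions lay between 3000176 and 3036075, and 12 of them were a single bin of 25 bp. The widest was 125 bp, 19 were 100 bp or less, and together they covered 825 bp. A gap of 202 kb separated them from the next region. The other 14 regions of that window had a median width of 275 bp, and 4 of them were 500 bp or wider. Background signal in the input library was not used, and whether these bins mark CTCF was not tested.

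**Figure D4:**
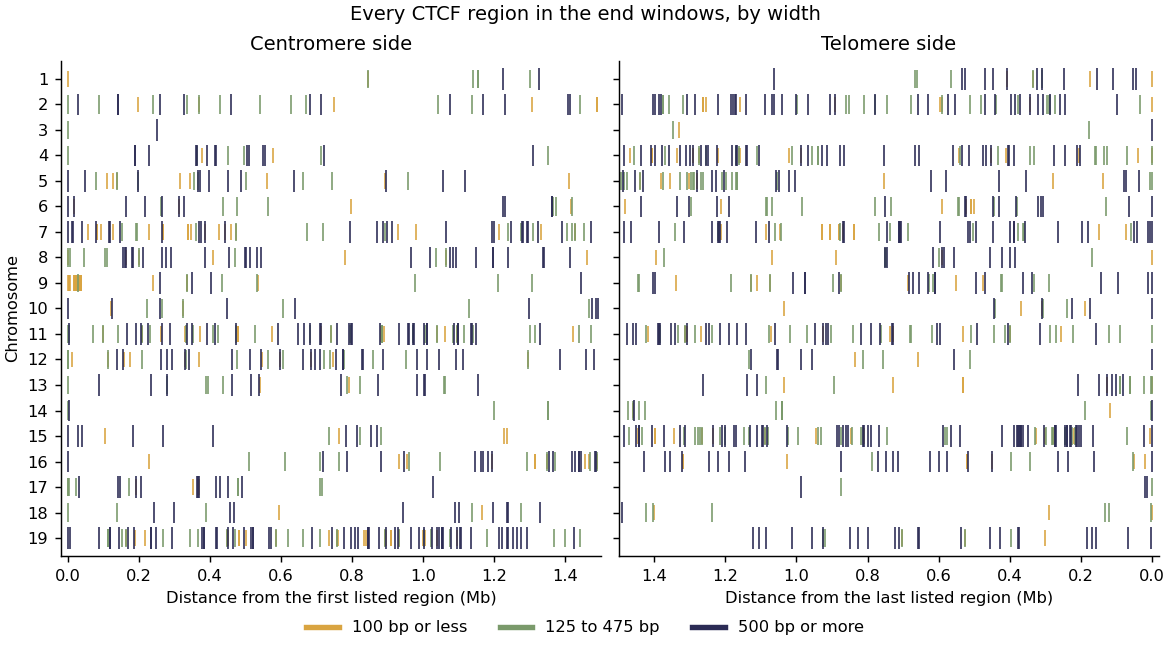
Position of each of the 1373 CTCF regions in the end windows, 1 row per autosome, against the distance in Mb from the first (left) or last (right) listed region; colour gives the width class. The run of 20 narrow regions at the start of chromosome 9 and the sparse rows of chromosome 3 stand out.

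Long empty stretches occurred on both sides. Gaps over 500 kb numbered 3 of 642 (0.47%) in the centromere windows and 6 of 693 (0.87%) in the telomere windows, against 592 of 52235 (1.13%) over all autosomes. The windows next to them held 4 of 616 (0.65%) on the centromere side and 1 of 1017 (0.098%) on the telomere side. A window of 1.5 Mb cuts longer gaps at its limits, so the shares of the windows do not compare with that of all autosomes. Only gaps with both flanking regions inside the window were counted, so the shares do not rank an end against its neighbour either. Sparse windows could add no long gap. Next to the centromere side of chromosome 9 there were 3 regions, with a longest counted gap of 136 kb. Next to the telomere side of chromosome 18 there were 5, with a longest counted gap of 210 kb. All of these shares rest on few long gaps. The longest gap between 2 regions of a centromere window, 1196 kb, lay on chromosome 14 from 6241020 to 7437444. A longer empty stretch ran from the second region of chromosome 3, after its gap of 248 kb, to the window limit. It was not counted, because no further region of that window closed it. Among the gaps counted on the telomere side the longest, 1153 kb, lay on chromosome 3 from 158057894 to 159211243. Chromosome 18 had one of 950 kb (89510632 to 90460681), chromosome 17 one of 856 kb (94274052 to 95129726) and chromosome 14 one of 850 kb (123771170 to 124621569). On chromosomes 14, 17 and 18 a few regions at the very end were thus cut off from the rest by most of 1 Mb.

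The median gap between neighbouring regions was 14.2 kb on the centromere side and 14.4 kb on the telomere side, against 14.4 kb over all autosomes. It was 9.85 kb in the window next to the telomere side. Of the regions on the telomere side, 61.9% (exact 95% interval 58.3 to 65.5%) had another within 10 kb, and 72.7% (69.9 to 75.4%) did in the window next to it. The share on the centromere side was 62.0% (58.2 to 65.7%), in the window next to it 69.3% (65.5 to 72.9%), and outside the outer 3 Mb 64.3% (63.9 to 64.7%). Regions with no other within 100 kb made up 3.48% (2.22 to 5.18%) of the centromere side, 2.67% (1.61 to 4.14%) of the telomere side and 0.58% (0.21 to 1.26%) of the window next to the latter. The window next to the centromere side had 4.25% (2.82 to 6.13%) and the autosomes outside the outer 3 Mb 3.11% (2.96 to 3.27%), so both end windows were near the general share.

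Region width is the only measure of size in the track. The median was 450 bp on the centromere side and 475 bp on the telomere side, and 425 bp outside the outer 3 Mb. Regions of 500 bp or more made up 48.0% (exact 95% interval 44.1 to 51.8%) and 49.7% (46.0 to 53.5%), against 46.7% (46.2 to 47.1%) outside. The difference between the sides was 1.76 percentage points (95% interval -3.63 to 7.14), and it was 3.80 points (0.17 to 7.43) with windows of 3 Mb and 5.56 (-1.04 to 12.1) with windows of 1 Mb. The difference was -1.03 points without regions of 100 bp or less and 0.27 without the first 100 kb of chromosome 9. Narrow regions of 100 bp or less made up 23.9% (20.7 to 27.3%) of the centromere side and 19.8% (16.9 to 22.9%) of the telomere side. Without the first 100 kb of chromosome 9 the centromere side had 21.7% (18.6 to 25.1%).

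**Figure D5:**
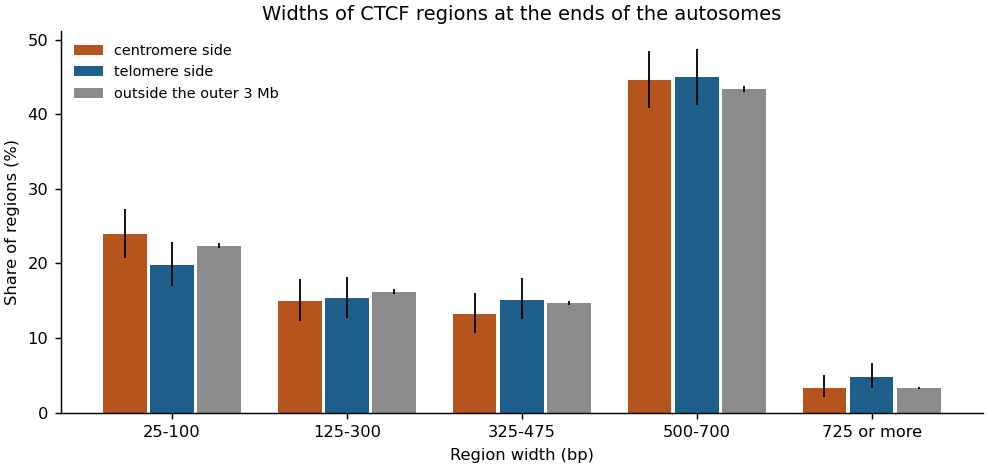
Share of regions in 5 classes of width (bars, in percent, with exact binomial 95% intervals) for the centromere side, the telomere side and the autosomes outside the outer 3 Mb. The class of 500 to 700 bp is the largest in each, at 44.6%, 44.9% and 43.4%.

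Single chromosomes spread widely in width. On the telomere side the share of regions of 500 bp or more ran from 10.0% of 10 regions on chromosome 18 and 14.3% of 14 on chromosome 14 to 74.2% of 31 on chromosome 19. On the centromere side it ran from 11.8% of 34 on chromosome 9 to 63.6% on chromosomes 4 and 8. Without its run of 20 narrow regions chromosome 9 had 28.6% of 14, and the lowest share was then 20% of 5 on chromosome 14. The dense ends held both wide and narrow regions. On chromosome 15 the telomere side had 58 regions of 500 bp or more and 17 of 100 bp or less, and on chromosome 19 the centromere side had 61 and 26.

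The widest regions at the ends were modest in size. The centromere side was led by a region of 1150 bp on chromosome 7 (4575280 to 4576429), followed by chromosome 19 with 1025 bp (3623261 to 3624285). Chromosome 11 (3434946 to 3435895) and chromosome 17 (3114252 to 3115201) had regions of 950 bp. Chromosome 5 (3596046 to 3596920) and again chromosome 19 (3718911 to 3719785) had regions of 875 bp. The telomere side was led by regions of 1025 bp on chromosome 2 (180207224 to 180208248) and chromosome 15 (103012080 to 103013104). Chromosome 4 followed with 1000 bp (155205111 to 155206110), and chromosome 2 with 925 bp (181393849 to 181394773). The fifth, also of 925 bp, was the last region of chromosome 19.

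The outermost regions themselves were mixed. Of the 19 first regions, 7 were 500 bp or wider and 2 were 100 bp or less. Of the 19 last regions, 10 were 500 bp or wider and 5 were 100 bp or less, 4 of them a single bin. The median width was 400 bp for the first and 525 bp for the last regions. The fifth region lay at a median of 181 kb from the centromere end (15.9 to 2748 kb) and 237 kb from the telomere end (50.7 to 1515 kb). The limits of the spans therefore rest in 5 cases on a single bin, on chromosomes 1, 2, 8 and 18 at the telomere side and on chromosome 9 at the centromere side.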

How the data were processed

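A browser track of peak positions was deposited for the CTCF library. Per the file headers it carries a name and a colour, and its other values, start and end positions of 825544 bins of 25 bp, come without score or height. Per the submitters' processing notes, the authors used Bowtie and the mm9 build. How peaks were called, at which threshold and whether against the input is not given in the sources used here, so weak sites left out by that threshold cannot be seen and the depth is unknown.

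Touching bins were joined into regions, and positions are given 1-based. Windows were set from the first and last listed region of each autosome. Poisson and binomial 95% intervals are exact, and the interval of a ratio comes from the binomial interval of a share. The interval of the difference between 2 shares combines their exact intervals by squares. With 1 library there is no test between conditions and no p-value. Backgrounds are the same counts over the other 1.5-Mb windows of the same chromosomes.

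The members, windows and the rule for named items were chosen with earlier results of these data known. That rule named the 3 highest and 3 lowest chromosomes on each side with their outermost regions, the 5 widest regions and the longest gap of each side. The densest 100 kb, the finer steps and the run on chromosome 9 were described after their values were seen. Gene order comes from the RefSeq table of GRCm38.p6, without predicted and clone-named genes and without genes that start below 3 Mb. Sequence was not used, for want of an mm9 genome. On 19 simulated chromosomes with known counts, all 4 window counts were recovered on 19. Python 3.11.15, numpy 2.4.6, scipy 1.17.1 and matplotlib 3.10.9 were used.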

Additional observations from a re-analysis of the deposited data

How the results depend on the processing

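Results were recomputed 166 times over 6 results, and 157 values stayed inside the counting interval or, for the count of chromosomes and the median gap, within 1.5 times the reported value. Another 9 moved. A change of direction was counted only where the reported interval excluded 1, which held for the ratio of the telomere side to its neighbour alone. Of its 27 recomputed values 0 changed direction. For the other results no change could be counted, and some of their values given below crossed 1 or, for the difference in share, 0. The ratio of telomere to centromere side, 1.08, became 0.96 with windows of 1 Mb and 1.35 (1.25 to 1.45) with windows of 3 Mb, and it ran from 0.94 without chromosome 15 to 1.24 without chromosome 19, so its direction rests on single chromosomes. Its interval included 1 as reported but lay above 1 with windows of 3 Mb, limits at the fifth region, no regions of 100 bp or less, and without chromosome 8, 12 or 19. The ratio of the telomere side to its neighbour, 0.69, became 0.78 with windows of 1 Mb, 0.89 with windows of 3 Mb and 0.80 with limits at the fifth region from each end; it ran from 0.63 without chromosome 4 to 0.77 without chromosome 10. The ratio of the centromere side to its neighbour, 1.04, became 1.55 with windows of 3 Mb and ran from 0.98 without chromosome 8 to 1.09 without chromosome 14. Beyond the change of window by construction, the cause was not tested. With each chromosome left out in turn, the telomere side was higher on 9 or 10 of the rest (14 of 19 with windows of 3 Mb). The difference in the share of regions of 500 bp or more then ran from -0.14 to 2.94 percentage points. It was 3.80 with windows of 3 Mb, 5.56 with windows of 1 Mb and -1.03 without regions of 100 bp or less. The ratio of median gaps, 1.01, ran from 0.86 to 1.18 with chromosomes left out and was 0.83 without regions of 100 bp or less. Without the first 100 kb of chromosome 9, an alternative added after seeing the data, the ratio of the sides was 1.11. The difference in share was then 0.27 points. No paired analysis was possible because only 1 library was mapped. The depth is unknown, so the number of weaker sites at the ends cannot be given.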

Other observations

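Chromosome X lies outside the comparison of the autosomes. The last 1.5 Mb of its listed span, which ends at 166428535, held 19 regions, next to 15. The first 1.5 Mb after its first region at 3846736 held 3, next to 11. The mean of chromosome X was 11.9 per 1.5 Mb. Like the windows of the autosomes, these were set from a listed region, so each holds at least 1.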
